A study of Homo sapiens with 24 samples.

Results

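Histone genes were followed on 24 bead arrays of RNA from LNCaP and C4-2B. LNCaP is an androgen-responsive human prostate cancer line, and C4-2B was derived from it and tolerates androgen withdrawal. The members were every gene whose current symbol starts with H1-, H2AC, H2BC, H3C, H4C, H3-, H2AX, H2AZ or MACROH2A, with older HIST names mapped by Entrez ID. This gave 81 genes of the 20042 genes that have a probe for 1 gene alone. Of these, 69 belong to the replication-linked sets (H1-1 to H1-6 and the H2AC, H2BC, H3C and H4C genes) and 12 are variant genes.

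Each line was cultured in RPMI with fetal bovine serum for 3 days in 4 ways, with 3 arrays for each of the 8 groups. In the inhibitor groups the cells received the solvent DMSO, or 1 µM of EPZ6438 (tazemetostat), which inhibits the methyltransferase activity of EZH2. In the transfection groups they received a control siRNA (siControl) or an siRNA to EZH2, labelled siEZH2 (CDS). EZH2 carries the enzymatic activity of a Polycomb complex that methylates histone H3 and silences genes. Replicates carry numbers in the labels, and whether each was cultured separately is not said there. All p-values therefore refer to the spread among these arrays, which may be technical. One EZH2 siRNA is labelled and none of the groups is a rescue, so effects of EZH2 loss and of that siRNA cannot be told apart.

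Most histone protein is made in S phase, when replicated DNA has to be packed into new nucleosomes. Most mRNAs of the replication-linked genes, which lie mainly in clusters, end in a stem-loop in place of a poly(A) tail and are degraded when replication stops. Some of these genes, such as H2BC21, H2BC5, H2BC12 and H2BC4, have longer annotated transcripts. Which form of mRNA a probe reads was not examined. Most variant genes make polyadenylated mRNA through the cell cycle, but H2AX makes both a stem-loop and a polyadenylated mRNA, and H3-4, a variant here by its symbol, lies in a histone cluster. Variant proteins replace the canonical ones outside replication or at particular places such as promoters (H2AZ, H3-3A and H3-3B), DNA breaks (H2AX) or silent chromatin (the MACROH2A genes).

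Promoters are shown for 4 members because they differ in what the array data show and in the elements that histone promoters are known for. The sequences are the 250 bases before the annotated start (RefSeq, GRCh38.p14), written 5′ to 3′ on the gene's strand. Capitals mark the CCAAT box, the TATA box written TATAAA and the octamer ATTTGCAT on either strand. The window of H2BC21, a replication-linked H2B gene, is chr1:149886683-149886932 on the minus strand. It shares 235 bases with the window of H2AC20, an H2A gene that starts 236 bases away and runs in the other direction. The windows of H1-2, a replication-linked linker histone gene, H3-3B, a replacement H3 gene, and MACROH2A2, a macroH2A gene, are chr6:26056471-26056720 (minus), chr17:75779780-75780029 (minus) and chr10:70052596-70052845 (plus).
H2BC21: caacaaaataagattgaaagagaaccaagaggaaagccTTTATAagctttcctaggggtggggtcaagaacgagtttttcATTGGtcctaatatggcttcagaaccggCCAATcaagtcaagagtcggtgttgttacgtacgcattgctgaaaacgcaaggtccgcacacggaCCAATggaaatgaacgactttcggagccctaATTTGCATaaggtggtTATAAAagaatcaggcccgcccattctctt
H1-2: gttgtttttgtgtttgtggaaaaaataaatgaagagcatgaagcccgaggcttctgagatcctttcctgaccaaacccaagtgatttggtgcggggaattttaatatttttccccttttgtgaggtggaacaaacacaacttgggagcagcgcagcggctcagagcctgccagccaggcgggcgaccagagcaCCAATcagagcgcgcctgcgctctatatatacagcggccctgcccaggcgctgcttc
H3-3B: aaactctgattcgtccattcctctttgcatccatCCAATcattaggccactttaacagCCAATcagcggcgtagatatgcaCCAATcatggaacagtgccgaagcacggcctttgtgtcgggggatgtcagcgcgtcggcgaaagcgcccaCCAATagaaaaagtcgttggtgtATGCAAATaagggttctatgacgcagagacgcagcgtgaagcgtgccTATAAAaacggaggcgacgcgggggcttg
MACROH2A2: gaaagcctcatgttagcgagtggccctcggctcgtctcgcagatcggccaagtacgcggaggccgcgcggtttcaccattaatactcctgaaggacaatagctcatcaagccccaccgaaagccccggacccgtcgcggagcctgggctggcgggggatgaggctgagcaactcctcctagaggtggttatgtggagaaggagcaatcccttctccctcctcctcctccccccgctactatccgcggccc

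H2BC21 held all 3 elements, H1-2 held CCAAT alone, H3-3B, although a variant gene, also held all 3, and MACROH2A2 held none. A promoter was found for 75 of the 81 members, and for 48 of the 50 genes that entered the tests. Over windows of 300 bases (250 before and 50 after the start), CCAAT was in 84.4% of 64 replication-linked promoters, TATAAA in 65.6% and the octamer in 40.6%. The shares among 11 variant promoters were 72.7%, 45.5% and 9.09%, and among all 35116 promoters 34.6%, 11.5% and 1.77%. The octamer was in 68.8% of 16 H2A and 77.8% of 18 H2B promoters, while 0 of 13 H4 promoters held it and 23.1% of those held CCAAT. Both strands were searched, a base may count for more than 1 motif, and a match is a description of the sequence only. H2AC7 and H3C4 have the same annotated start, so the same window was counted for both.

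The 81 genes were represented by 96 probes, of which 37 were detected (detection p under 0.05) on all 24 arrays and 20 on none. A gene entered the tests when a probe was detected on at least 3 arrays, which left 50 genes, 41 replication-linked and 9 variant. The 31 others included 28 replication-linked genes, among them H1-3, H1-4, H1-5, H3C3 and H4C4, and the variants H1-7, H1-8 and H3-4, each on at most 2 arrays. Of the 41 replication-linked genes, 11 lie on chromosome 1 and 29 on chromosome 6. Levels are log2 intensities after background correction and quantile normalisation, and changes are log2 differences ± standard error of a limma fit over all 24 arrays. Adjusted p-values are Benjamini-Hochberg values over 13789 genes, and a gene was called when it was under 0.05. The levels of different probes cannot be compared, and near-identical copies such as H2AC18 and H2AC19, H4C14 and H4C15, or H3-5 and H3-3B, may share signal. Overlap between the arrays of 2 groups is given as a description of single genes, and its share over all genes was not counted.

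The share of detected probes ran from 40.8% to 45.8% over the arrays, and the lowest correlation between arrays of a group was 0.986. All 9 luminal prostate markers with a probe, such as KLK3 and TMPRSS2, were detected on every array. Of 14 markers of blood, endothelial, stromal, basal and neuroendocrine cells, 4 (PTPRC, KRT5, KRT14 and SYP) were on no array and 1 (VWF) was on all. COL1A1 was on 21 arrays, CD14 on 20, INSM1 on 15, CHGA on 5, COL1A2 on 4 and DCN on 3. CD3E, HBB and PECAM1 were on 1 each. The mean level of the 7 that were kept ranged from 4.63 to 4.99 over the groups. VWF alone ran from 5.12 in C4-2B siControl to 7.52 in C4-2B DMSO.

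The siRNA lowered EZH2 mRNA. EZH2 stood at 6.71, 6.73 and 6.73 in LNCaP siControl and at 5.73, 5.89 and 5.93 with siEZH2 (−0.87 ± 0.16, adjusted p = 0.000174). In C4-2B it stood at 7.58, 7.25 and 7.76 and at 6.19, 6.85 and 6.50 (−1.02 ± 0.16, adjusted p = 7.16e-05). The siEZH2 arrays were below the siControl arrays in both lines, and with EPZ6438 the differences were −0.12 ± 0.16 and −0.00 ± 0.16 (adjusted p = 0.739 and 0.996).

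**Figure D1:**
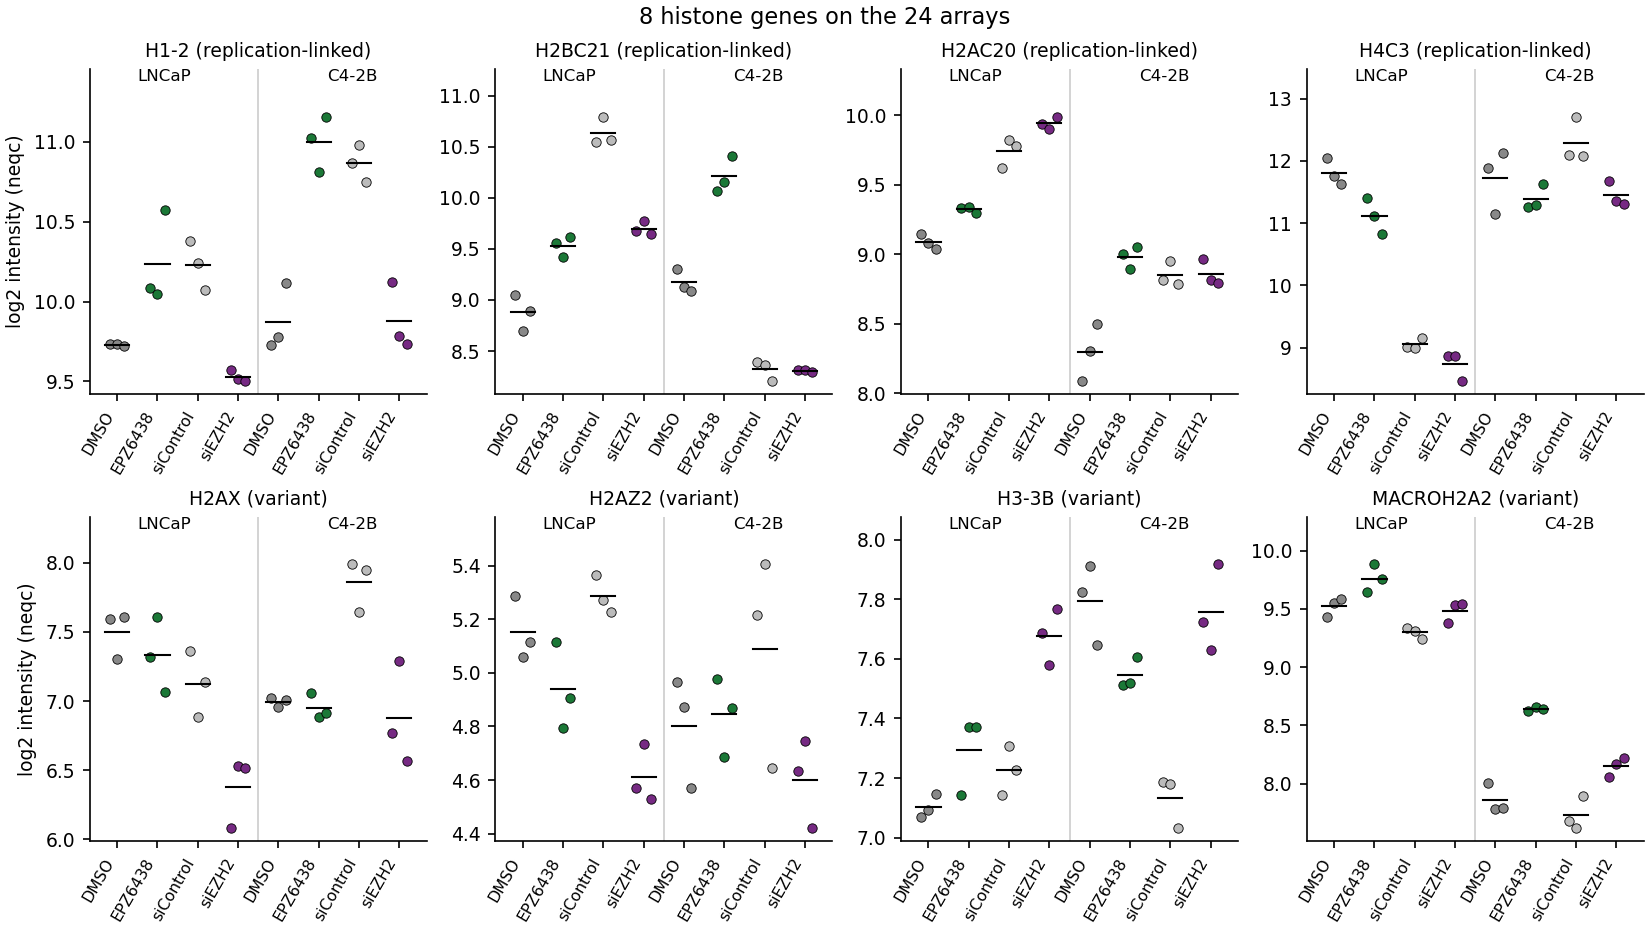
Log2 intensity (y axis) of 8 histone genes on the 24 arrays, grouped by line and culture (x axis); each point is 1 array and each line the mean of 3. H1-2 is higher with EPZ6438 and lower with siEZH2 in both lines, H2AX and H2AZ2 have lower means with siEZH2, and H4C3 lies near 9 only in transfected LNCaP.

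The first question was which histone genes follow the lowering of EZH2 by siRNA. In LNCaP, 10 of the 50 genes rose with siEZH2 and 6 fell, where 14.2% of all genes rose and 12.5% fell. The replication-linked genes moved both ways, 8 up and 4 down of 41 with a median difference of 0.15, and so did the variants, 2 up and 2 down of 9 with a median of −0.03, beside 0.02 for all genes. In C4-2B, 2 of 50 rose and 5 fell, where 10.1% and 8.53% of all genes did. On the probes used, no replication-linked gene rose there by limma (1 at an unadjusted p under 0.05) and 3 of 41 fell (median −0.05). Of the variants, 2 rose and 2 fell (median −0.10, all genes 0.03). Another probe of H2BC5 and another of MACROH2A1 did rise, as given below. The shares called among the histone genes, 32% and 14%, lay near those of all genes. Of 32 S phase genes, described below, 10 fell in LNCaP and 22 in C4-2B.

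Among the replication-linked genes, H2BC21 had the lowest log2 difference with siEZH2 in LNCaP. It stood at 10.55, 10.79 and 10.57 with siControl and at 9.67, 9.77 and 9.65 with siEZH2, a fall of 0.94 ± 0.11 on the log2 scale (adjusted p = 3.58e-07). In C4-2B the values were 8.40, 8.36 and 8.21 and 8.31, 8.31 and 8.30, and the groups overlapped (−0.01 ± 0.11, adjusted p = 0.957). The difference between the lines in this effect was 0.93 ± 0.15 (adjusted p = 0.000429), 1 of 2 histone genes for which it passed the test, where 5.78% of all genes did. Thus H2BC21 was high in transfected control LNCaP and low in C4-2B with either siRNA.

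H1-2 encodes one of the linker histones that bind DNA between nucleosomes, and it fell in both lines. In LNCaP it stood at 10.38, 10.24 and 10.07 with siControl and at 9.57, 9.51 and 9.50 with siEZH2 (−0.70 ± 0.14, adjusted p = 0.000362). In C4-2B it stood at 10.87, 10.98 and 10.75 and at 10.12, 9.78 and 9.74 (−0.98 ± 0.14, adjusted p = 1.63e-05). Every siEZH2 array was below every siControl array of its line.

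The 10 genes that rose with siEZH2 in LNCaP included 4 of the 11 replication-linked H2A genes, of which none fell. Of all genes 14.2% rose and 12.5% fell. In the other replication-linked families 1 rose and 1 fell of 11 H2B genes, 1 and 0 of 8 H3 genes, and 2 and 2 of 9 H4 genes. H2AC11 stood at 5.97, 6.01 and 6.06 with siControl and at 6.62, 7.24 and 6.44 with siEZH2 (0.75 ± 0.15, adjusted p = 0.000471). H2AC8 stood at 5.54, 5.52 and 5.32 and at 6.28, 6.09 and 6.12 (0.71 ± 0.16, adjusted p = 0.00171). H2BC8, the H2B gene that shares its promoter region with H2AC8 (starts 233 bases apart), rose from 5.95, 5.89 and 5.80 to 6.48, 6.72 and 6.23 (0.60 ± 0.11, adjusted p = 0.000238). In all 3 genes the groups did not overlap in LNCaP. H2AC21 moved from 5.53, 5.20 and 5.20 to 5.96, 5.86 and 5.97 and H2AC18 from 10.41, 10.10 and 10.22 to 10.64, 10.68 and 10.76. H4C12 went from 7.20, 6.93 and 6.96 to 7.48, 7.64 and 7.33, H4C11 from 5.01, 5.14 and 5.30 to 5.54, 5.65 and 5.56 and H3C4 from 5.61, 5.28 and 5.55 to 5.93, 5.75 and 5.93. The siEZH2 arrays of these 5 genes lay above the siControl arrays. H2AC21 rose by 0.62 ± 0.14, H2AC18 by 0.45 ± 0.13, and the H4 genes H4C12 and H4C11 by 0.46 ± 0.15 and 0.43 ± 0.12, and H3C4, an H3 gene, by 0.39 ± 0.13 (adjusted p between 0.00146 and 0.0295). The H4 genes H4C8 and H4C16 fell by 0.55 ± 0.17 and 0.33 ± 0.11 (adjusted p = 0.0183 and 0.0355). H4C8 stood at 9.52, 9.46 and 9.29 with siControl and at 8.91, 8.99 and 8.71 with siEZH2, without overlap. H4C16 was detected on 2 of 3 siControl arrays and on none of the siEZH2 arrays, which gives at least a 1.03-fold higher level with siControl. Its arrays stood at 4.75, 4.28 and 4.64 with siControl and at 4.19, 4.29 and 4.22 with siEZH2, and the groups overlapped.

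In C4-2B, none of these H2A and H2B genes passed the test. H2BC8 was detected on none of the 12 C4-2B arrays, so no change of it could be measured there, although the fitted difference of its siEZH2 effect between the lines was −0.65 ± 0.16 (adjusted p = 0.0148). H2AC8 was detected on 3 of the 6 transfected C4-2B arrays and on none of the 6 others. The genes that fell in C4-2B besides H1-2 were H4C3, an H4 gene, and H2BC11, an H2B gene. H4C3 stood at 12.09, 12.70 and 12.08 with siControl and at 11.68, 11.36 and 11.31 with siEZH2 (−0.84 ± 0.20, adjusted p = 0.00499). H2BC11 stood at 6.85, 7.43 and 6.71 and at 6.48, 6.25 and 5.79 (−0.82 ± 0.24, adjusted p = 0.0177), a wide spread with no overlap.

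Among the variant genes, H2AX and H2AZ2 fell in both lines and H3-3B rose in both. H2AX, whose product is phosphorylated beside DNA breaks, stood at 7.36, 6.89 and 7.14 with siControl and at 6.08, 6.53 and 6.51 with siEZH2 in LNCaP (−0.75 ± 0.17, adjusted p = 0.00144). In C4-2B it stood at 7.99, 7.64 and 7.95 and at 6.77, 7.29 and 6.57 (−0.99 ± 0.17, adjusted p = 0.000176). Neither line showed an overlap of groups. H2AZ2, one of the genes for the H2AZ variant found at promoters, stood at 5.36, 5.27 and 5.23 and at 4.57, 4.73 and 4.53 in LNCaP (−0.68 ± 0.15, adjusted p = 0.00127). In C4-2B it stood at 5.22, 5.40 and 4.64 and at 4.64, 4.75 and 4.42, where the groups overlapped and 2 of 3 siEZH2 arrays detected it (−0.49 ± 0.15, adjusted p = 0.0231). H2AZ1, the other gene for this variant, differed by −0.03 ± 0.08 and −0.20 ± 0.08 in LNCaP and C4-2B, without passing the test (adjusted p = 0.826 and 0.0719).

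H3-3B, whose promoter is shown above and which encodes the same protein as H3-3A, rose in both lines. It stood at 7.14, 7.31 and 7.23 with siControl and 7.69, 7.58 and 7.77 with siEZH2 in LNCaP (0.45 ± 0.10, adjusted p = 0.00106). In C4-2B it stood at 7.19, 7.18 and 7.03 and 7.72, 7.63 and 7.92 (0.62 ± 0.10, adjusted p = 7.23e-05). All siEZH2 arrays were above the siControl arrays of their line. H3-3A rose in LNCaP from 12.37, 12.33 and 12.34 to 12.83, 12.94 and 12.78 (0.51 ± 0.08, adjusted p = 2.52e-05), and its 2 other probes gave 0.40 and 0.38. In C4-2B it differed by 0.21 ± 0.08 (adjusted p = 0.0631), with no overlap. MACROH2A2 rose in C4-2B from 7.68, 7.62 and 7.90 to 8.06, 8.17 and 8.22 (0.42 ± 0.09, adjusted p = 0.00264) and differed by 0.18 ± 0.09 in LNCaP (adjusted p = 0.162), again without overlap.

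The siEZH2 counts depended on the scaling and on single arrays. When each array was centred on the median over all probes, 10 were up and 1 down in LNCaP, and C4-2B had 1 of each. Centring on probes detected everywhere gave 6 up and 7 down in LNCaP, with 2 and 7 for C4-2B, while the median of all genes moved from 0.02 to 0.18 and −0.12 in LNCaP and from 0.03 to 0.21 and −0.14 in C4-2B. The first centring turned the medians of the variants to 0.09 in LNCaP and 0.19 in C4-2B and that of the replication-linked genes in C4-2B to 0.11, and the second turned that in LNCaP to −0.05. In LNCaP, H1-2, H2AX, H2BC21, H4C8, H2AC18 and H4C16 missed the threshold with the first centring (H1-2 at −0.40, adjusted p = 0.317, and H2BC21 at −0.64, adjusted p = 0.155), and in C4-2B H1-2 and H3-3B were the 2 that kept it. With the second centring H2AC8 (adjusted p = 0.0695), H2BC8 (adjusted p = 0.0743), H2AC18, H3C4, H4C11 and H4C16 missed it in LNCaP. Of the 16 genes called in LNCaP, 6 (H2AC18, H3C4, H4C8, H4C11, H4C12 and H4C16) lost the call without some single array, as did H2AZ2, H2BC11 and H4C3 of the 7 in C4-2B. Without replicate 2 of C4-2B siControl these last 3 stood at −0.33, −0.61 and −0.64 (adjusted p = 0.178, 0.132 and 0.0521).

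**Figure D2:**
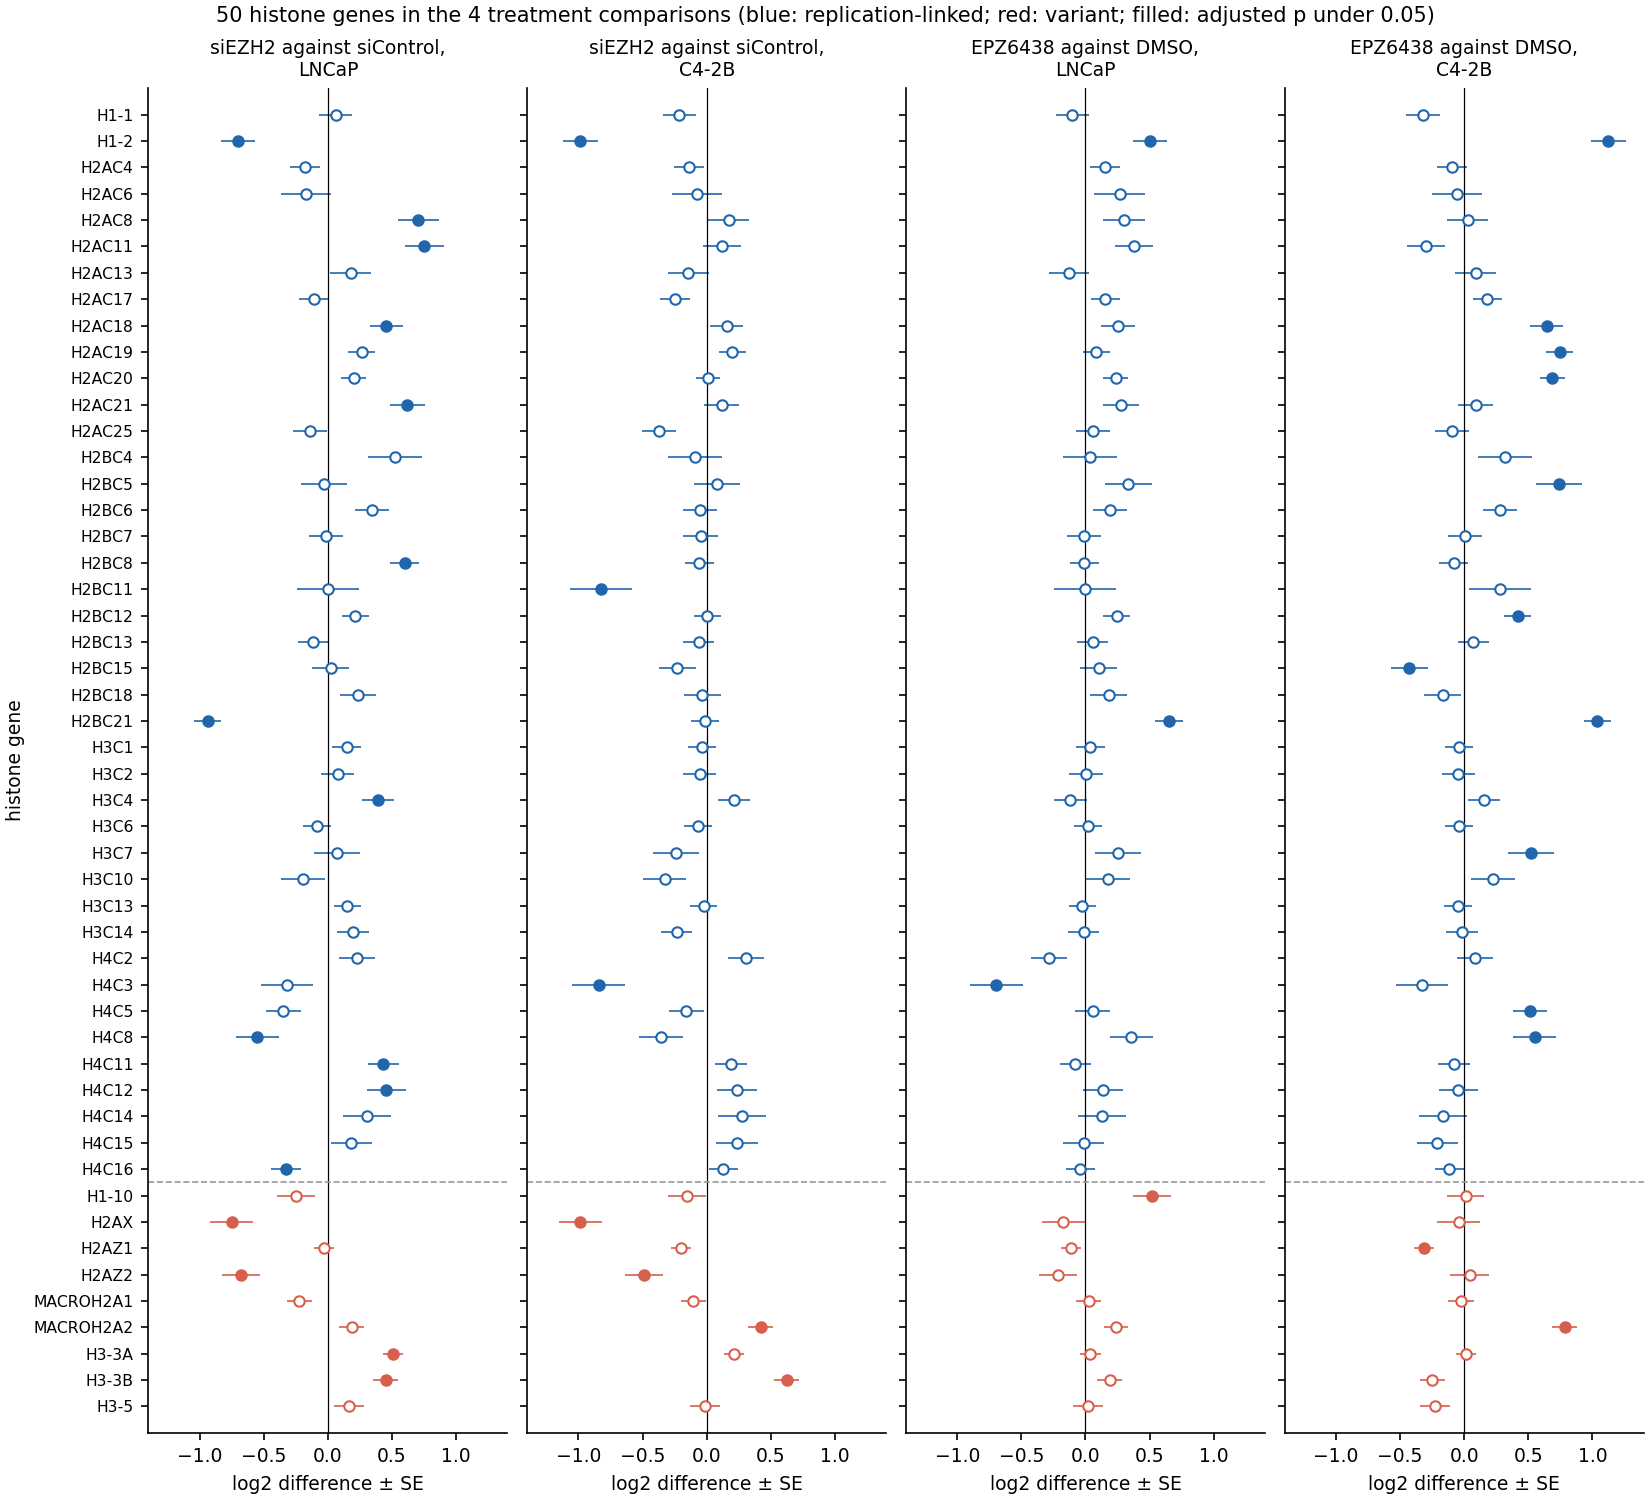
Log2 differences ± standard error (x axis) of the 50 histone genes (y axis) in the 4 treatment comparisons, with replication-linked genes in blue above the dashed line and variants in red below; filled points have an adjusted p under 0.05. Calls with EPZ6438 in C4-2B lie mostly to the right, 11 up and 2 down.

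The second question was which histone genes respond when the enzyme is inhibited and its mRNA is left in place. In LNCaP, 3 of 50 genes rose with EPZ6438 and 1 fell, where 4.00% and 2.68% of all genes did. In C4-2B, 11 rose and 2 fell, where 8.14% and 7.04% of all genes did. Of those 11, 10 were replication-linked (of 41), with a median difference over the class of 0.03 beside 0.00 for all genes, and 1 was a variant (of 9, median −0.03). The LNCaP medians were 0.09 and 0.02 (all genes 0.01). Centring on probes detected everywhere turned the C4-2B median of the replication-linked genes to −0.03. A stricter filter, which asked for detection on at least 6 arrays and on every array of some group, gave that median as 0.08. Those that rose were 4 of the 11 replication-linked genes on chromosome 1 and 6 of the 29 on chromosome 6. Of the 32 S phase genes, 18 fell in LNCaP and 10 rose in C4-2B.

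H1-2 and H2BC21 rose in both lines. H1-2 stood at 9.73, 9.74 and 9.72 with DMSO and at 10.08, 10.05 and 10.57 with EPZ6438 in LNCaP (0.50 ± 0.14, adjusted p = 0.027). In C4-2B it stood at 9.73, 9.78 and 10.12 and at 11.03, 10.81 and 11.15 (1.12 ± 0.14, adjusted p = 1.85e-06). Every EPZ6438 array exceeded the DMSO arrays of its line. H2BC21 stood at 9.05, 8.70 and 8.90 and at 9.56, 9.42 and 9.62 in LNCaP (0.65 ± 0.11, adjusted p = 0.000659), and at 9.31, 9.13 and 9.08 and 10.07, 10.16 and 10.42 in C4-2B (1.04 ± 0.11, adjusted p = 1.7e-07). The groups did not overlap in LNCaP or C4-2B.

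H2AC20, the gene on the other side of the H2BC21 promoter, rose in C4-2B with its neighbour. It stood at 8.09, 8.30 and 8.50 with DMSO and at 9.00, 8.90 and 9.05 with EPZ6438 (0.69 ± 0.10, adjusted p = 1.56e-05). In LNCaP the values were 9.15, 9.08 and 9.04 and 9.33, 9.34 and 9.30 (0.23 ± 0.10, adjusted p = 0.151), without overlap but not past the test. H2AC19 and H2AC18, which encode the same H2A protein in a chromosome 1 cluster, stood in C4-2B at 8.80, 9.15 and 9.07 and 8.71, 8.69 and 8.94 with DMSO. With EPZ6438 they stood at 9.77, 9.65 and 9.84 and 9.33, 9.28 and 9.65 (0.74 ± 0.11 and 0.64 ± 0.13, adjusted p = 1.93e-05 and 0.000939), again without overlap. The EPZ6438 effect was larger in C4-2B than in LNCaP for H2AC19 (0.66 ± 0.15, adjusted p = 0.00745), H2AC20 (0.45 ± 0.14, adjusted p = 0.0466) and MACROH2A2 (0.54 ± 0.13, adjusted p = 0.013). These were 3 of 50 genes, where 6.67% of all genes passed that test, and H2AC20 lost its call in 10 of 12 fits without 1 array.

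H2BC5 stood at 7.33, 7.36 and 7.82 with DMSO and at 8.06, 8.21 and 8.46 with EPZ6438 in C4-2B, and H2BC12 at 11.06, 11.20 and 11.17 and 11.38, 11.57 and 11.72. H4C8 stood at 7.42, 7.68 and 7.43 and 7.80, 7.99 and 8.38, H4C5 at 4.97, 4.96 and 5.16 and 5.45, 5.46 and 5.72, and H3C7 at 6.15, 6.04 and 5.86 and 6.42, 6.51 and 6.68. In these H2B, H4 and H3 genes every EPZ6438 array was above the DMSO arrays. The other replication-linked genes that rose in C4-2B were H2BC5 (0.74 ± 0.18), H4C8 (0.55 ± 0.17), H3C7 (0.52 ± 0.18), H4C5 (0.51 ± 0.13) and H2BC12 (0.42 ± 0.11), with adjusted p between 0.00565 and 0.0496. H2BC15, an H2B gene detected on 14 of 24 arrays, fell by 0.43 ± 0.14 from 5.27, 5.06 and 4.66 to 4.52, 4.56 and 4.62 (adjusted p = 0.0452). H4C3 fell in LNCaP, from 12.05, 11.76 and 11.62 to 11.40, 11.12 and 10.83 (−0.70 ± 0.20, adjusted p = 0.042), without overlap. In C4-2B its arrays overlapped (−0.33 ± 0.20, adjusted p = 0.329).

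Of the variants, MACROH2A2 rose in C4-2B from 8.00, 7.78 and 7.79 to 8.62, 8.66 and 8.64 (0.78 ± 0.09, adjusted p = 1.95e-06), and differed by 0.24 ± 0.09 in LNCaP (adjusted p = 0.136), without overlap in C4-2B or LNCaP. H2AZ1 fell there from 12.50, 12.51 and 12.57 to 12.19, 12.20 and 12.25 (−0.31 ± 0.08, adjusted p = 0.00647), a small change without overlap. H1-10, a linker histone variant, rose in LNCaP from 7.95, 8.20 and 8.46 to 8.30, 8.85 and 9.01, groups that overlapped (0.52 ± 0.15, adjusted p = 0.035). MACROH2A1, the other macroH2A gene, ran from 12.26 to 12.62 over the 12 DMSO and EPZ6438 arrays. It ran from 12.14 to 12.84 over the transfected ones, and was called with neither treatment. H2AX, H2AZ2, H3-3A and H3-3B, which passed the test with siEZH2, differed by −0.25 to 0.19 with EPZ6438 and passed in neither line.

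Calls with EPZ6438 changed with the processing. With centring on the median of all probes the limma count was 0 in LNCaP (2 at an unadjusted p under 0.05) and 1 up in C4-2B (H1-2), with centring on probes detected everywhere 1 and 7 up and 0 and 1 down, and with a fit of LNCaP DMSO and EPZ6438 arrays alone 0 (7 unadjusted). Only H2BC21 of the 4 LNCaP calls held without every single array in turn, and without replicate 3 of LNCaP EPZ6438 the others stood at 0.33 (H1-2), 0.37 (H1-10) and −0.55 (H4C3), with adjusted p of 0.217, 0.242 and 0.235. In C4-2B, 8 of 13 calls held. H3C7 lost its call in all 6 fits without 1 array, H2BC15 in 5, H4C8 in 4, and H2BC12 and H4C5 in 1 each.

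**Figure D3:**
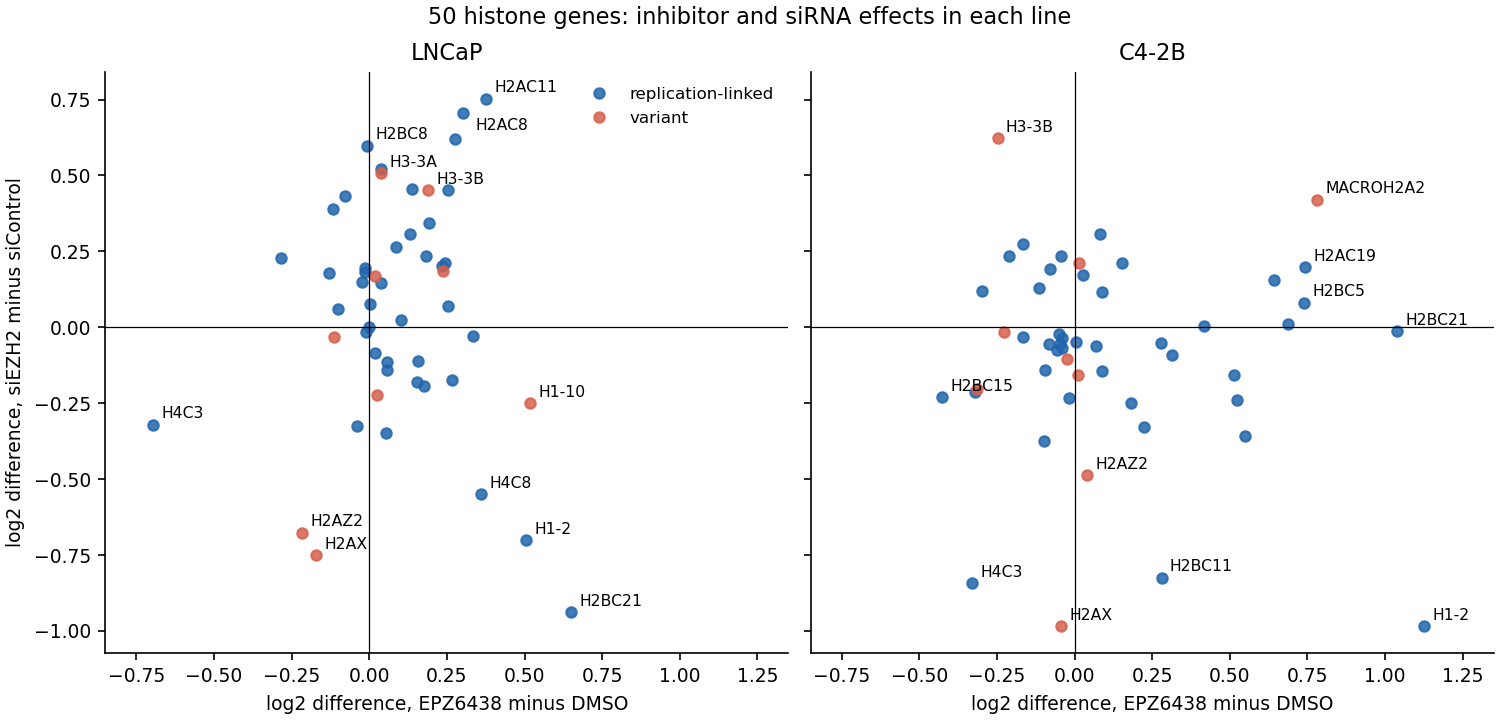
Each point is 1 of 50 histone genes, with the log2 difference with EPZ6438 on the x axis and with siEZH2 on the y axis, in LNCaP (left) and C4-2B (right). H1-2 lies in the lower right of both panels (0.50 and −0.70, 1.12 and −0.98).

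The direct comparison of the 2 ways of acting on EZH2 asked where the siRNA and inhibitor effects differ. In LNCaP the difference passed the test for 7 of 50 histone genes, 3 up and 4 down, where 18.5% of all genes did. In C4-2B it passed for 10, 1 up and 9 down, where 13.9% did. H1-2 had opposite calls in both lines, and the siEZH2 effect minus the EPZ6438 effect was −1.20 ± 0.19 in LNCaP and −2.11 ± 0.19 in C4-2B (adjusted p = 7.64e-05 and 5.24e-08). H2BC21 gave −1.59 ± 0.15 in LNCaP and −1.05 ± 0.15 in C4-2B (adjusted p = 8.93e-08 and 2.88e-05). H4C8 gave −0.91 ± 0.24 and −0.91 ± 0.24 (adjusted p = 0.00946 and 0.0123). For these 3 replication-linked genes the siRNA effect was the lower one in both lines.

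In LNCaP H2BC8 (0.61 ± 0.16), H4C11 (0.51 ± 0.17) and H3-3A (0.47 ± 0.11) had the higher effect with siEZH2, and H1-10 the lower (−0.77 ± 0.21). In C4-2B H3-3B was the 1 gene with the higher effect with siEZH2 (0.87 ± 0.14, adjusted p = 9.17e-05). H2BC11 (−1.10 ± 0.34), H2AX (−0.94 ± 0.24), H3C7 (−0.76 ± 0.25), H2AC20 (−0.68 ± 0.14), H4C5 (−0.67 ± 0.19) and H2AC19 (−0.55 ± 0.15) had the lower (adjusted p between 0.00131 and 0.0456). Centring on the median of all probes left 0 in LNCaP by limma (9 at an unadjusted p under 0.05) and 1 (H1-2) in C4-2B, and centring on probes detected everywhere gave 0 up and 5 down in LNCaP and 1 and 8 in C4-2B. Of 12 fits without 1 array, H4C11 lost its call in LNCaP in 9, and in C4-2B H3C7 did in 9, H2BC11 in 6, H4C5 in 3 and H2AC19 in 1. H2BC8, H3-3A and H4C11 in LNCaP and H2BC11 and H3C7 in C4-2B also missed the threshold with the second centring.

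Over the 4 treatment comparisons, 21 of 41 replication-linked genes and 7 of 9 variants were called at least once, and 5 and 4 at least 2 times. Of all genes tested, 44.4% were called at least once and 17.7% at least 2 times. H1-2 alone was called in all 4. H2AC6, H2AC17, H2AC25, H3C6, H3C10, H4C14, H4C15, H3-5 and MACROH2A1 were detected on all arrays and called in none of the 4. The 7 genes with several kept probes had 11 probes besides the one used, of which 9, 7, 10 and 7 had the same sign (siEZH2 and then EPZ6438, LNCaP first). Probes of H2BC5 disagreed: the one used differed by −0.03 and 0.08 with siEZH2 in LNCaP and C4-2B, while another, also detected on all arrays, gave 1.08 and 0.69 (adjusted p over all kept probes = 6.00e-07 and 0.000494). For MACROH2A1 the probe used differed by −0.22 and −0.10 with siEZH2, and another gave −0.10 and 0.63 (adjusted p = 0.625 and 0.000526).

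Of 13 pairs of members that start within 1000 bases of each other in opposite directions, 6 had both genes in the tests. H3C4 and H2AC7 have the same annotated start, so the pairs of each with H2BC7 describe the same region. The H3C4 pair is among the 6. Both genes of a pair passed together in 2 treatment comparisons, H2BC8 and H2AC8 with siEZH2 in LNCaP and H2BC21 and H2AC20 with EPZ6438 in C4-2B. The first pair missed the threshold with centring on probes detected everywhere and the second with centring on all probes. H2BC21 also fell with siEZH2 in LNCaP while H2AC20 differed by 0.20 ± 0.10 (adjusted p = 0.132). Pearson's r over the 24 arrays was 0.94 for H2BC8 and H2AC8, 0.54 for H2BC21 and H2AC20 and between 0.21 and 0.76 for the 4 others. Arrays share line and culture, and after subtraction of group means the 6 values were between 0.01 and 0.42.

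The third question was how the lines themselves differ, on the same control arrays that serve the treatment comparisons. Over DMSO and siControl arrays, 7 of 50 histone genes were higher in C4-2B than in LNCaP and 24 lower, where 24.6% and 24.9% of all genes were. Of the replication-linked genes 5 were higher and 19 lower (median −0.16), and of the variants 2 and 5 (median −0.20, all genes 0.00). Of the 11 H2A genes 6 were lower and 1 higher, and of 9 H4 genes 5 and 1. Centring on the median of all probes gave 2 higher and 14 lower, and centring on probes detected everywhere 7 and 15.

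MACROH2A2 had the lowest log2 difference of all members in C4-2B against LNCaP. Its 6 control arrays ranged from 9.24 to 9.58 in LNCaP and from 7.62 to 8.00 in C4-2B (−1.62 ± 0.07, adjusted p = 5e-16). H4C8 ranged from 8.21 to 9.52 and from 7.42 to 7.93 (−1.28 ± 0.12, adjusted p = 2.89e-09). H2AC20 ranged from 9.04 to 9.82 and from 8.09 to 8.95 (−0.84 ± 0.07, adjusted p = 2.09e-10). No array of one line reached the range of the other in these 3 genes, nor in H2AC19, H2AC8, H2BC8 and H4C5. How many of all genes were separated in this way was not counted. H2BC8 ranged from 5.17 to 5.95 in LNCaP and was not well above background in any C4-2B array, a level at least 2.02-fold higher in LNCaP (adjusted p = 3.7e-12). H4C3 (1.57 ± 0.14), H2BC11 (0.71 ± 0.17), H2AC11 (0.47 ± 0.11), H1-10 (0.43 ± 0.10), H1-2 (0.39 ± 0.10), H2BC15 (0.32 ± 0.10) and H3-3B (0.30 ± 0.07) were higher in C4-2B, with ranges that overlapped. None of these passed the limma test in both control cultures. In DMSO cultures H2BC11, H1-10 and H1-2 differed by 0.16, 0.34 and 0.14 (adjusted p = 0.648, 0.0705 and 0.442) and H4C3 by −0.09. In siControl cultures H2BC15 differed by 0.02 (adjusted p = 0.929), H2AC11 by −0.08 and H3-3B by −0.09.

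**Figure D4:**
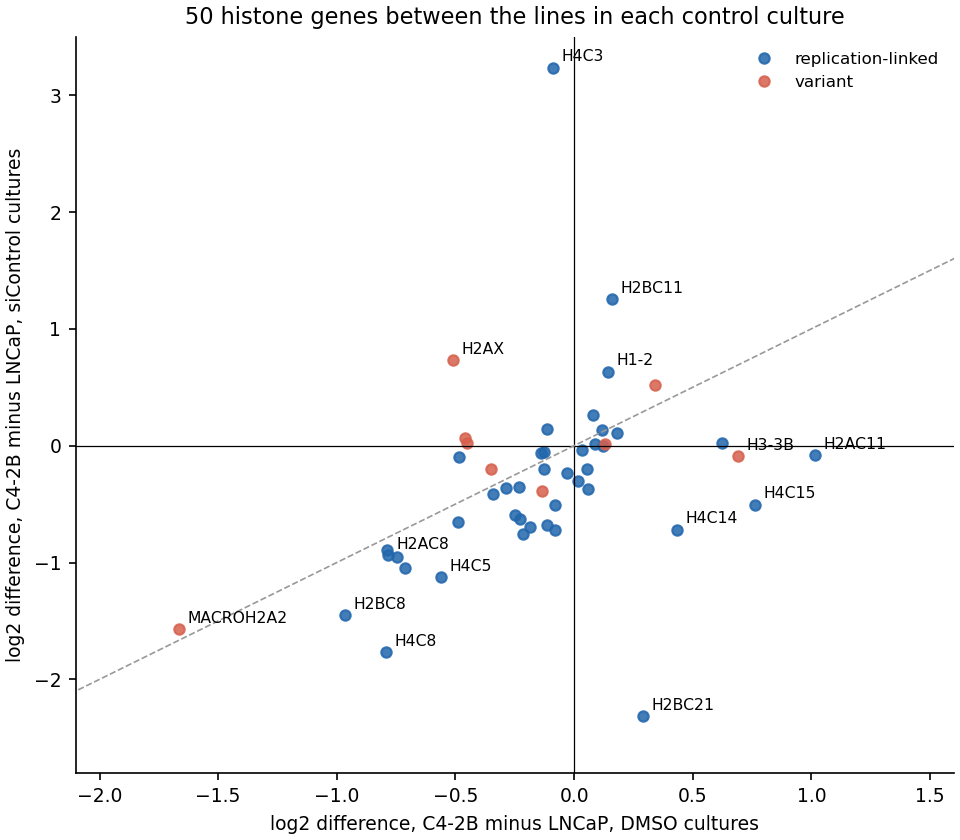
Log2 difference between C4-2B and LNCaP for each of 50 histone genes in DMSO cultures (x axis) and siControl cultures (y axis); the dashed line marks equal differences. MACROH2A2 lies near the dashed line, while H4C3 (−0.09 and 3.24) and H2BC21 (0.29 and −2.31) lie far from it.

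The line difference depended on which control cultures were compared. In DMSO cultures 5 histone genes were higher and 14 lower in C4-2B, where 19.9% and 20.0% of all genes were. In siControl cultures the counts were 5 and 24, where 22.6% and 24.3% of all genes were. H4C3 stood at 12.05, 11.76 and 11.62 in LNCaP with DMSO and at 11.88, 11.15 and 12.13 in C4-2B, a difference of −0.09 ± 0.20 (adjusted p = 0.775). With siControl it stood at 9.02, 8.99 and 9.16 and at 12.09, 12.70 and 12.08, a difference of 3.24 ± 0.20. The 6 transfected LNCaP arrays, between 8.47 and 9.16, were below all other arrays. H2BC21 differed by 0.29 ± 0.11 in DMSO cultures (adjusted p = 0.0328) and by −2.31 ± 0.11 in siControl cultures, where LNCaP arrays stood at 10.55, 10.79 and 10.57 and C4-2B arrays at 8.40, 8.36 and 8.21.

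The change of the line difference between cultures passed the test for 15 of 50 histone genes (5 up, 10 down), where 34.1% of all genes did; it was computed after the data had been seen. H4C3 gave 3.32 ± 0.29 and H2BC21 −2.61 ± 0.15 (adjusted p = 3.47e-09 and 4.42e-12). Of the variants H2AX (1.24 ± 0.24), H2AZ1 (0.53 ± 0.11) and H3-3A (0.47 ± 0.11) had the higher line difference in siControl cultures and H3-3B (−0.78 ± 0.14) the lower (adjusted p between 9.03e-05 and 0.00172). The labels do not say whether DMSO and siControl cultures were run together. The transfection and any difference between runs therefore cannot be told apart. MACROH2A2 differed by −1.66 and −1.57 between the lines in DMSO and siControl cultures, close to each other.

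**Figure D5:**
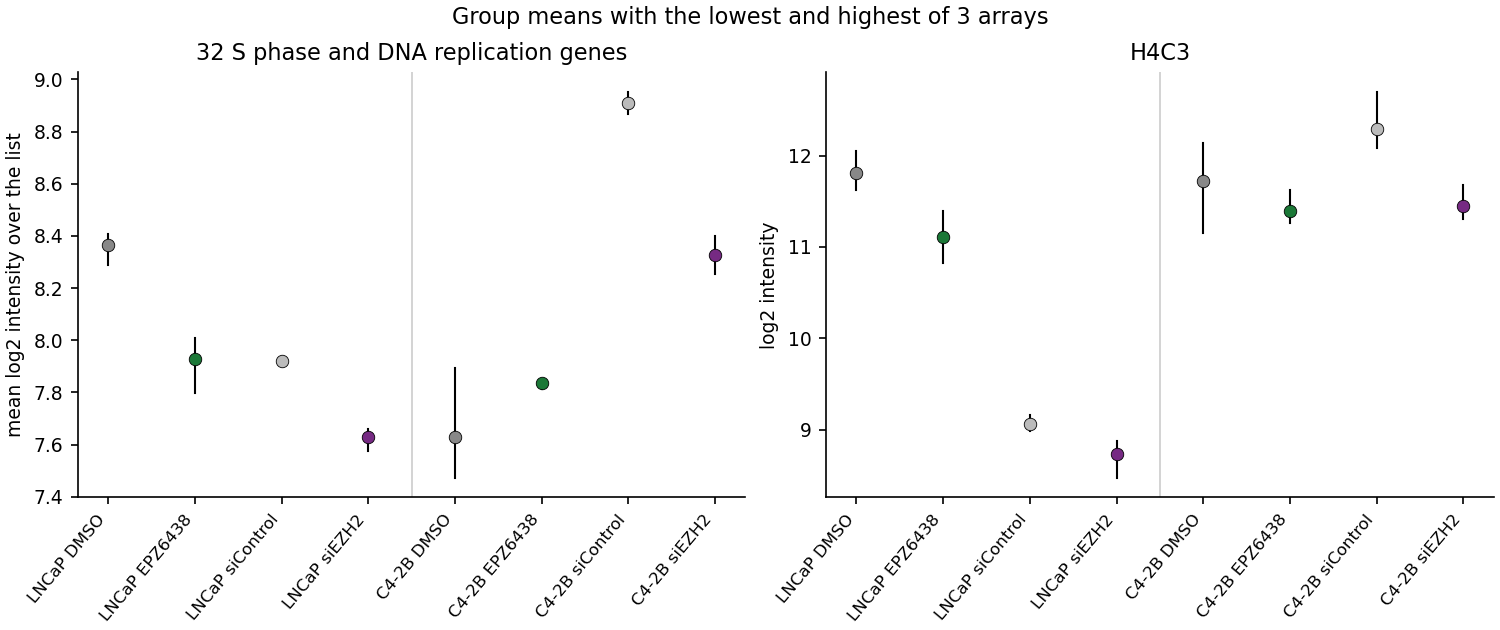
Mean log2 intensity of 32 S phase and DNA replication genes (left) and of H4C3 (right) in the 8 groups (x axis); points are group means and bars run from the lowest to the highest of 3 arrays. H4C3 is lowest in the 2 transfected LNCaP groups, and the S phase mean is highest in C4-2B siControl (8.87 to 8.95).

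Genes that mark S phase moved in the same comparisons, and their part in the histone differences was not tested. The list held 33 genes of DNA replication and the S phase, 32 of them measured. With siEZH2 1 rose and 10 fell in LNCaP (median −0.23), and 22 fell in C4-2B and 0 rose (median −0.49, 0 higher at an unadjusted limma p under 0.05). Of all genes, 14.2% rose and 12.5% fell in LNCaP (median 0.02), and 10.1% and 8.53% in C4-2B (median 0.03). With EPZ6438 18 fell in LNCaP and 0 rose (median −0.47, 0 higher unadjusted), and 10 rose in C4-2B and 0 fell (median 0.17, 1 lower unadjusted). The shares of all genes were 4.00% up and 2.68% down in LNCaP (median 0.01), and 8.14% and 7.04% in C4-2B (median 0.00). DTL, which directs the destruction of the licensing factor CDT1 in S phase, fell by 0.91 ± 0.12 in LNCaP with siEZH2 and fell by 1.32 ± 0.12 in C4-2B, and MCM4, a helicase subunit, rose by 0.89 ± 0.16 with EPZ6438 in C4-2B. The list's mean level was 8.36 with DMSO and 7.93 with EPZ6438 in LNCaP, and 7.63 and 7.83 in C4-2B. It was 7.92 with siControl and 7.63 with siEZH2 in LNCaP, against 8.91 and then 8.33 in C4-2B. In the change of the line difference between control cultures, 31 of 32 were higher (median 1.75), where 15.9% of all genes were. With EPZ6438 in LNCaP, H4C3 was the 1 of 41 replication-linked histone genes that fell, where 2.68% of all genes fell. It lost that call in 5 of 6 fits without 1 array. H4C3 also fell with siEZH2 in C4-2B, but was not called with EPZ6438 in C4-2B, where 10 S phase genes rose. The list's mean was 7.93 and 7.92 in LNCaP with EPZ6438 and siControl. H4C3 stood there at 11.40, 11.12 and 10.83 and at 9.02, 8.99 and 9.16. Any link between H4C3 and the S phase genes was not tested.

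The machinery that makes histone mRNA was described by 21 measured genes of 25. With siEZH2, 5 rose and 4 fell in LNCaP (14.2% and 12.5% of all genes) and 3 and 3 in C4-2B (10.1% and 8.53%). With EPZ6438 none rose and 2 fell in LNCaP, with 1 higher at an unadjusted limma p under 0.05 (4.00% and 2.68% of all genes). In C4-2B 3 rose and 2 fell with EPZ6438 (8.14% and 7.04%). NCBP2, the small subunit of the cap-binding complex, fell by 1.38 ± 0.11 and 1.02 ± 0.11 with siEZH2 in LNCaP and C4-2B. LSM10, part of the U7 particle that cuts histone mRNA, fell by 0.58 ± 0.11 and 0.62 ± 0.11. E2F2, a transcription factor of the S phase, fell by 0.70 ± 0.16 with EPZ6438 in LNCaP and rose by 0.54 ± 0.16 in C4-2B.

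Histone chaperones and exchange factors were described by 35 measured genes of 36. With siEZH2, 4 rose and 6 fell in LNCaP (14.2% and 12.5% of all genes) and 2 and 9 in C4-2B (10.1% and 8.53%). With EPZ6438 none rose and 6 fell in LNCaP, with 1 higher at an unadjusted limma p under 0.05 (4.00% and 2.68% of all genes). In C4-2B 1 rose and 4 fell with EPZ6438 (8.14% and 7.04%). CHAF1B, a subunit of the chaperone that places H3 and H4 behind the replication fork, fell by 0.60 ± 0.10 with siEZH2 in C4-2B and by 0.50 ± 0.10 with EPZ6438 in LNCaP. EP400, which helps place H2AZ and the replacement H3, rose by 0.51 ± 0.11 and 0.58 ± 0.11 with siEZH2 in LNCaP and C4-2B. CENPA, the centromeric H3 variant, fell by 0.48 ± 0.11 in LNCaP with EPZ6438 and fell by 1.02 ± 0.11 in C4-2B.

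Luminal markers also moved, with 0 of 9 up and 7 down in LNCaP with siEZH2 (14.2% and 12.5% of all genes). In C4-2B 1 was up and 2 down with siEZH2 (10.1% and 8.53% of all genes). EPZ6438 gave 3 up and 1 down in LNCaP (4.00% and 2.68%), and 4 up and 1 down in C4-2B (8.14% and 7.04%). Of 7 kept markers of other cells none passed limma's test with siEZH2 (1 and 1 at an unadjusted p under 0.05 in LNCaP and C4-2B), none with EPZ6438 in LNCaP (1 unadjusted), and VWF fell by 0.78 ± 0.13 with EPZ6438 in C4-2B. Fewer cells of a type and less RNA per cell cannot be told apart in these bulk samples, and neither can fewer cells in S phase and less histone mRNA in each.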

How the data were processed

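Each of 24 samples was measured on its own bead array (Illumina HT-12). The authors deposited, per the file headers, an average intensity on a linear scale without normalisation, and beside it a detection p-value, for 47311 probes. GenomeStudio is named in the submitters' processing notes, with no version. The primer used in labelling, which matters for mRNAs without a poly(A) tail, is not given in the sources used here. A processed table by the authors, also of linear intensity, served as an alternative only.

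Intensities were corrected and normalised with neqc (normexp by detection p-value, offset 16, quantile, log2) in limma 3.58.1 under R 4.3.3. Probes were named through GEO's platform annotation, with symbols updated by Entrez ID for 30069 probes. Of all probes, 30108 had 1 gene, 8 several and 17195 none, and those without exactly 1 gene were left out. A probe was kept when its detection p was under 0.05 on at least 3 arrays (26278 probes), and each gene was read from the kept probe with the highest mean. A probe detected on no array of a group has only a bound there, set at the lowest signal among detected probes of each array or its own signal where higher. One limma model with 8 group means was fitted over all arrays (16 residual and 7.43 prior degrees of freedom), and p-values were adjusted over 13789 genes. The precision is limited by 3 arrays per group. The fit was tested on simulated data with known changes.

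Members, classes, marker lists and the list of alternatives were chosen with earlier results of these data known. Values on every array are given for members called in a treatment comparison, up to 10 in each direction, and for the main variant genes; of the other lists up to 4 called genes by size of fold could be named per comparison. Promoters and gene positions are those of RefSeq (GRCh38.p14). Alternatives changed the scaling, background correction, dim-probe filter, choice of probes, arrays fitted, replicate block and single arrays.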

Additional observations from a re-analysis of the deposited data

Results flagged for a closer look

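For 5 histone genes the effect of a treatment differed between the lines by a test of the difference itself. Each is the log2 effect in C4-2B minus that in LNCaP, ± standard error, with a limma p adjusted over all genes. The siEZH2 effect differed by 0.93 ± 0.15 for H2BC21 (adjusted p = 0.000429), which was lower in all LNCaP siEZH2 arrays than in the siControl arrays and stayed between 8.21 and 8.40 in the transfected C4-2B arrays. It differed by −0.65 ± 0.16 for H2BC8 (adjusted p = 0.0148), whose probe was detected on no C4-2B array, so that the C4-2B effect has no measured level behind it. The EPZ6438 effect was larger in C4-2B by 0.66 ± 0.15 for H2AC19 (adjusted p = 0.00745), by 0.45 ± 0.14 for H2AC20 (adjusted p = 0.0466) and by 0.54 ± 0.13 for MACROH2A2 (adjusted p = 0.013). All 3 had lower DMSO levels in C4-2B than in LNCaP. With centring on the median of all probes none of the 5 passed. H2AC20 also missed the threshold in 10 of 12 fits without 1 array, with centring on probes detected on all arrays, with every kept probe, with the compared groups alone and with the replicate block. MACROH2A2 missed it with the compared groups alone, and H2BC8 with centring on probes detected on all arrays.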

How the results depend on the processing

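Counts of called histone genes kept within 1.5 times of the reported count in 10 of 10 alternatives for siEZH2 in LNCaP (11 to 21 genes), and in 5 of 10 for EPZ6438 in LNCaP (0 to 5). Centring on the median of all probes, with limma as before, gave 2 for siEZH2 in C4-2B, 0 and 1 for EPZ6438 in LNCaP and C4-2B, 0 and 1 for the difference between siEZH2 and EPZ6438 effects in LNCaP and C4-2B, 0 and 0 for the siEZH2 and EPZ6438 effects between lines (5 and 1 at an unadjusted p under 0.05), 16 for the lines and 5 for the change of the line difference between cultures. Centring on probes detected on all arrays gave 1 and 8 for EPZ6438 in LNCaP and C4-2B and 1 for the siEZH2 effect between lines. The authors' processed table gave 2 for EPZ6438 in LNCaP, 6 for the siEZH2 and 5 for the EPZ6438 effect between lines. Without the filter on dim probes EPZ6438 in LNCaP gave 2. Fitting the compared groups alone gave 0 for EPZ6438 in LNCaP and 1 for its effect between lines, which was 5 without background correction and 5 with the mean of all kept probes. DMSO arrays alone gave 19 for the lines. The sign of the line difference turned in DMSO arrays alone for H2BC21 (0.29) and H4C3 (−0.0877), and in siControl arrays alone for H2AC11 (−0.0784), H2AZ1 (0.0686), H3-3A (0.0199) and H3-3B (−0.0921); the cause was not tested. Without single arrays the counts ran from 12 to 16 and 4 to 8 for siEZH2, 1 to 4 and 8 to 13 for EPZ6438, 6 to 9 and 7 to 12 for their difference (LNCaP, then C4-2B), 2 to 3 and 2 to 6 for the siEZH2 and EPZ6438 effects between lines, 29 to 32 for the lines and 14 to 16 for the change between cultures, an added comparison. With the replicate block the counts were, in that order, 15, 8, 4, 12, 7, 14, 2, 3, 31 and 16. After subtraction of group means, same-numbered samples correlated between −0.28 and 0.32 in 12 pairs, 2 of them above 0.1. The same number gave the best match in 6 of the 12, so whether the numbers pair the samples was not settled. Signal near background limits H2AC8, H2BC8 and H2BC15.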
